A study of Rattus norvegicus with 39 samples.

Results

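Ageing of the cerebral cortex between mid-life and old age was followed in rats with free access to food, by comparing RNA-seq libraries of 12 months (12 m AL) with libraries of 28 months (28 m AL). Both groups were male BN rats (SubstrainBN/SsNOlaHSD) that stayed on the non-supplemented diet ad libitum (AL) for life and were singly housed as adults, so that age is the labelled difference between them. Each library was made from ribosomal RNA-depleted cortex RNA of a pool of 2 rats, with 3 pools per group, so that 6 of the 39 libraries of the series were compared. Members were taken by the age and diet in the sample titles, pools 4, 5 and 6 for 12 m AL and pools 7, 8 and 9 for 28 m AL. The 6 m AL pools (1, 2 and 3), the calorie restricted groups (12 m CR and 28 m CR) and the groups fed AL with α-lipoic acid (12 m AL+LA and 28 m AL+LA) are used here for reference only. Groups of 28 months that changed diet during life serve as a reference as well. Each value is a pool, so the spread between replicates is the spread between pools and not between rats. In a homogenised tissue, fewer cells of a type and less RNA per cell cannot be told apart.

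The ageing cortex is commonly described through its glia. Astrocytes that react to injury or age make more of the intermediate filament GFAP. Microglia and infiltrating or perivascular immune cells present peptides on major histocompatibility complex (MHC) class II molecules, which are loaded with the help of the invariant chain CD74. Neuronal ageing is more often described by transcripts of synaptic vesicle release, of peptide secretion and of chromatin regulation.

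The libraries differed in depth and content before any gene was tested. Reads on genes were 3813173 in pool 4, 494091 in pool 5 and 2366549 in pool 6 of 12 m AL, and ranged from 3109488 to 4537079 in 28 m AL. Pool 5 was the shallowest of all 39 libraries, and in it 1 CPM, before the TMM scaling applied to all CPM values here, stands for 0.494 reads. Where the text names a gene by symbol whose call changes without it, the adjusted p without it is given as well. The excitatory cortical markers that could be named (Nrgn, Neurod6 and Fezf2) were present in all 6 pools, with a summed level of 120.9 to 212.5 CPM at 12 months and 101.6 to 137.8 CPM at 28 months. Cerebellar genes were present as well. The mean log2 CPM of 10 cerebellar markers was 4.07, 6.44 and 7.86 in pools 4, 5 and 6 and 7.36, 3.90 and 7.29 in pools 7, 8 and 9, against at most 5.22 in any library of another diet. Gabra6, a GABA receptor subunit of cerebellar granule cells, had 1.10, 126 and 629 CPM at 12 months and 592, 0.29 and 531 CPM at 28 months. The high libraries were 2 of the 3 in either group, the summed level of the 10 markers ran from 729.2 to 3434 CPM at 12 months and from 821.4 to 2477 CPM at 28 months, and none of the 10 was at 0 in a whole group. Of these 10 markers 0 passed the test between the ages (0.517% of all genes did), and 0 had an unadjusted p under 0.05 in edgeR's quasi-likelihood test.

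**Figure D1:**
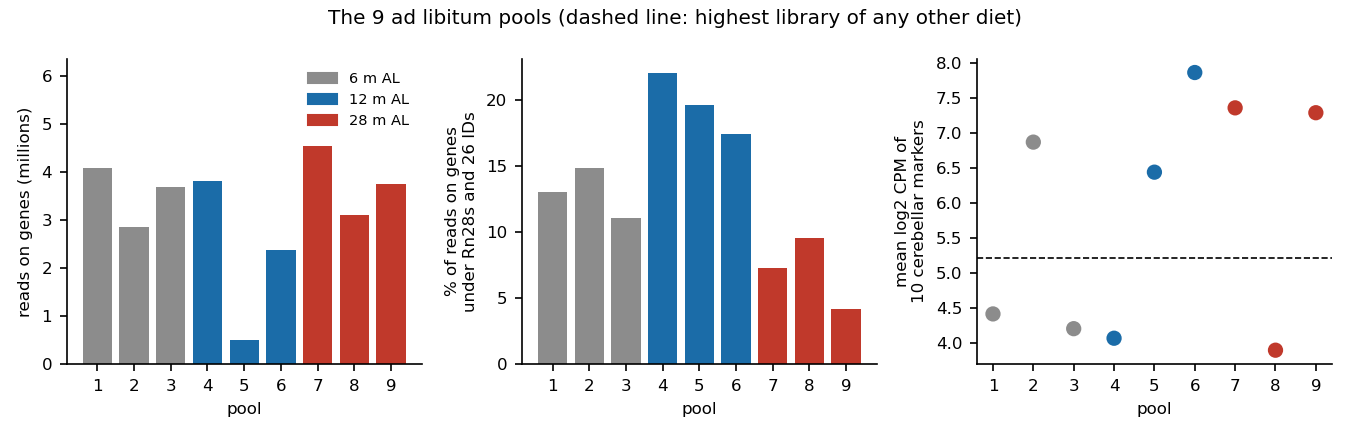
Reads on genes (left), the percentage of those reads under Rn28s and 26 identifiers that follow it (middle) and the mean log2 CPM of 10 cerebellar markers (right) for each of the 9 AL pools, coloured by age. Pool 5 is the shallowest, the 12 m AL pools hold 17.45% to 22.05% of their reads in the Rn28s set against 4.19% to 9.53% in the 28 m AL pools, and pools 2, 5, 6, 7 and 9 lie above the dashed line, the highest value in any other diet.

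Of the 17230 genes tested with edgeR's quasi-likelihood test, 89 (0.517%) had a Benjamini-Hochberg adjusted p under 0.05. Of these, 13 (0.0754%) were higher and 76 (0.441%) lower at 28 months. An unadjusted p under 0.05 was found for 1773 genes (10.3%), of which 805 were higher and 968 lower, and the median log2 fold change of all genes was 0.02. A log2 fold change is 28 m AL over 12 m AL throughout. The pools of the groups did not overlap for 88 of the 89 genes, where 16.1% of all genes had pools that did not overlap. The exception, ENSRNOG00000011672, was picked out after its values were seen. It had 94.6 CPM in pool 6, 0 CPM in pools 4 and 5 and at most 1.22 CPM in the 28 m AL pools, and 119.7 CPM in pool 2 of 6 m AL. Its edgeR adjusted p was 0.0109, and 0.0839 without pool 5. The 89 genes hold a set of 27 identifiers made of Rn28s and those that follow it (the Rn28s set), described at the end, and 62 others, of which 50 carry a symbol.

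Without the shallow pool 5, 31 genes (0.18%) passed. All 31 were lower at 28 months and all 31 were among the 89, namely 13 of the Rn28s set and 18 others. No gene passed as higher without that pool with the same test, although all 13 that were higher with it still had an unadjusted p under 0.05 (1749 genes, 10.2%, did so in all). Their adjusted p ran from 0.053 to 0.368. The signs were the same for all 89, which is largely fixed in advance where pools do not overlap. The median change of a log2 fold change on leaving out pool 5 was 0.08, with a maximum of 0.47. The other lower genes with a symbol that passed both with and without pool 5 were Gfap, C3, Cd74, RT1-Ba, RT1-Da, RT1-Db1, Hba2, Hba-a2, Snx3, Nop10, Aldoa, Tshz2, Cml3 and Mbd6.

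**Figure D2:**
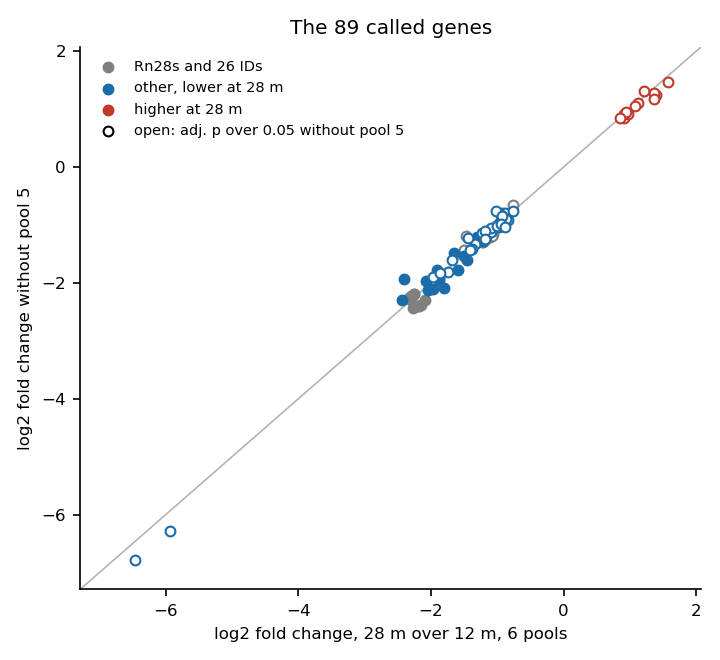
The log2 fold change of 28 m AL over 12 m AL for the 89 called genes, from all 6 pools (x axis) and from the 5 pools that remain without pool 5 (y axis), with the line of equality. Every point keeps its sign, the 31 filled points pass the test without pool 5 and all 13 genes higher at 28 months are open. The points under -5 are genes with no or hardly any reads in 28 m AL, for which the fitted value depends on the prior count.

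Genes of MHC class II antigen presentation fell together. Of 6 members tested, 5 were lower at 28 months (4 of them also without pool 5), 0 were higher, and the median log2 fold change was -1.99. Between pools 4 and 8 alone, those of low cerebellar score, the 5 had smaller log2 fold changes, from -1.36 (RT1-Ba) to -0.95 (RT1-Bb). With the cerebellar score as a covariate in the 6 libraries these ran from -2.37 (RT1-Da) to -1.94 (Cd74). Symbols were known only for 1664 identifiers, which are genes that the study listed in at least one of its own comparisons of these libraries, so that the count over any list is taken from a selected set: 51 of these 1664 (3.07%) passed here and their median log2 fold change was -0.11. The group pairs the α and β chains of the 2 rat class II molecules, RT1-B (RT1-Ba and RT1-Bb) and RT1-D (RT1-Da and RT1-Db1), with the invariant chain.

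The 150 bases before the RefSeq start of each RT1 gene that fell are printed first, because these promoters carry the boxes known to be shared by class II genes, a Y box (here the letters CTGATTGG) and an X box (here its letters GCAACNG). Matches are in capitals, and all sequences read 5′ to 3′ on the strand of the gene in build GRCr8, whereas the counts were made on Rnor_5.0.
RT1-Ba (chr20:4576907-4577056, plus strand): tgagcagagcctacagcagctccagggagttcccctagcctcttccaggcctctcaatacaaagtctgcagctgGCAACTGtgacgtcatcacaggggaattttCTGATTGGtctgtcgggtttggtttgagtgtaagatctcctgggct
RT1-Bb (chr20:4604119-4604268, minus strand): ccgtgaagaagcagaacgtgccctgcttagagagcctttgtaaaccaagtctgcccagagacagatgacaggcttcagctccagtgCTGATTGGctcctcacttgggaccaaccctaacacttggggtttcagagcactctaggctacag
RT1-Da (chr20:4515265-4515414, plus strand): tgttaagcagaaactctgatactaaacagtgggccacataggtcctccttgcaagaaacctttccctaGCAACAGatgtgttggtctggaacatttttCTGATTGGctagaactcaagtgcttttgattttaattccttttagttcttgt
RT1-Db1 (chr20:4560163-4560312, minus strand): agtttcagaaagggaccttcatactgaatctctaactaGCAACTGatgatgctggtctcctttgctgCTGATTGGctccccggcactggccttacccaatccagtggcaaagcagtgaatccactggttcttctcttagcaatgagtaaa
CTGATTGG was present in all 4 of these windows, where 2.45% of the 33469 promoter windows of the same length in the table hold it on either strand. GCAACNG was present in RT1-Ba, RT1-Da and RT1-Db1 (6.39% of all windows), with 23, 23 and 22 bases between the 2 motifs, and both motifs together were in 0.137% of all windows. Neither sequence of letters was in the window of Cd74. Of the 51 called genes with a symbol, 35 have a promoter entry, 5 of them with CTGATTGG: Nucb1 and these 4 RT1 genes. The motifs are letters found in a window, and binding was not measured.

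RT1-Ba (ENSRNOG00000000451), the α chain of RT1-B, had 73.0, 114 and 96.7 CPM in pools 4, 5 and 6 and 15.1, 28.4 and 21.99 CPM in pools 7, 8 and 9. RT1-Bb (ENSRNOG00000032708), its β chain, had 26.9, 36.6 and 32.1 CPM at 12 months and 4.69, 13.9 and 5.56 CPM at 28 months. Every 12-month pool was above every 28-month pool for either chain, and pool 8 was the highest of the older pools for both. The levels at 12 months were 4.22-fold (RT1-Ba, edgeR adjusted p = 1.27e-05) and 3.91-fold (RT1-Bb, adjusted p = 0.00353) those at 28 months. RT1-Bb had 18 reads in pool 5 and an adjusted p of 0.053 without that pool.

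RT1-Da (ENSRNOG00000032844), the α chain of RT1-D, had 53.8, 152 and 65.8 CPM at 12 months and 13.5, 21.2 and 12.3 CPM at 28 months. RT1-Db1 (ENSRNOG00000033215), its β chain, had 46.4, 44.7 and 70.4 CPM at 12 months and 10.8, 18.3 and 11.8 CPM at 28 months. The groups did not overlap, but for RT1-Da the shallow pool 5 lay far above the other pools of its age, and its log2 fold change moved from -2.41 ± 0.31 (SE) to -1.94 without that pool. That of RT1-Db1 was -2.02 ± 0.26 with pool 5 and -2.10 without it, and both chains passed either way.

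Cd74 (ENSRNOG00000018735), the invariant chain, had the highest mean CPM of the 5 at both ages, although RT1-Da was above it in pool 5. It had 101, 144 and 110 CPM at 12 months and 20.6, 46.7 and 25.7 CPM at 28 months. Its log2 fold change was -1.90 ± 0.25 (edgeR adjusted p = 7.72e-05). The cathepsin Ctss, which trims the invariant chain, had 184, 175 and 151 CPM at 12 months and 218, 245 and 207 CPM at 28 months. These groups did not overlap either, with the 28-month pools above the others, and the difference did not pass the test (log2 fold change 0.40 ± 0.18, adjusted p = 0.429).

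At 6 months the class II genes lay at or below their levels of 28 months. Cd74 had 20.8, 26.9 and 16.7 CPM in pools 1, 2 and 3, which overlapped those of 28 months, while RT1-Db1 had 4.26, 6.12 and 2.92 CPM and lay below them. In the comparison of 6 m AL with 12 m AL, all 5 genes rose, by log2 fold changes of 3.64 (RT1-Db1), 3.37 (RT1-Da), 2.95 (RT1-Bb), 2.73 (RT1-Ba) and 2.44 (Cd74). In that of 6 m AL with 28 m AL none of the 5 passed edgeR's test (adjusted p from 0.123 for RT1-Db1 to 0.504 for Cd74). The 12 m AL pools are shared by the first of these comparisons and the one described here, so they are not independent of each other.

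Among the class I genes 0 of 3 tested members passed (median log2 fold change -0.73). RT1-A1, a classical class I heavy chain, had 96.8, 122 and 102 CPM at 12 months and 58.1, 69.3 and 53.0 CPM at 28 months, without overlap (edgeR adjusted p = 0.058). RT1-A2 had 22.4 to 29.9 CPM at 12 months and 13.7 to 17.4 CPM at 28 months (adjusted p = 0.305). Of 2 interferon-induced genes tested, Ifit2 and Mx2, 0 passed, with pools that overlapped.

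Astrocyte and reactive glia genes did not move as one. Of 9 reactive glia genes 3 were lower (Gfap, C3 and Apod) and 0 higher, with a median log2 fold change of -0.75. Of 6 astrocyte markers only Gfap passed, and the median was -0.14.

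Gfap (ENSRNOG00000002919), the astrocyte filament protein, had 620, 578 and 701 CPM in pools 4, 5 and 6 and 140, 203 and 171 CPM in pools 7, 8 and 9. It was 3.69-fold higher at 12 months (log2 fold change -1.88 ± 0.18, edgeR adjusted p = 4.98e-06), and it passed in each of the 6 fits that left out a pool. The 6 m AL pools, at 422, 384 and 347 CPM, lay between the other ages without overlap. Its coverage was the best of the group, with 284 reads in the shallow pool 5.

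C3, the central complement component, had 83.9, 73.2 and 89.2 CPM at 12 months and 28.8, 49.6 and 29.4 CPM at 28 months (edgeR adjusted p = 0.00654). The lipid carrier Apod had 104, 220 and 157 CPM at 12 months and 69.6, 82.4 and 77.5 CPM at 28 months (adjusted p = 0.0242, and 0.203 without pool 5). Neither group of pools overlapped, and for Apod the highest value was again in pool 5. The complement genes Serping1, C1qc and C2 did not pass.

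The remaining astrocyte markers ran in either direction without passing. Aqp4, the water channel of astrocyte endfeet, had a log2 fold change of -0.62 ± 0.17 (adjusted p = 0.14), and Kcnj10, their potassium channel, one of -0.87 ± 0.23 (adjusted p = 0.12). The gap junction gene Gjb6 had 57.9, 67.1 and 57.5 CPM at 12 months and 101, 97.7 and 98.6 CPM at 28 months, the other direction (0.73 ± 0.19, adjusted p = 0.093). Apoe had a log2 fold change of 0.08 and Clu one of -0.16, with pools that overlapped for Apoe.

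Of 8 microglia markers 0 passed, with a median log2 fold change of -0.48 and a summed level of 87.45 to 133.6 CPM at 12 months against 77.78 to 110.8 CPM at 28 months. Of the 8, 7 had a negative log2 fold change and 4 an unadjusted p under 0.05 in edgeR's test. Without pool 5 the median was -0.64. Itgam, an integrin of microglia and other myeloid cells, had between 8.13 and 15.4 CPM at 12 months and between 2.08 and 6.96 CPM at 28 months (edgeR adjusted p = 0.103), resting on 4 reads in pool 5. Fcer1g, an Fc receptor chain, had 14.3, 24.4 and 15.4 CPM and then 7.14, 8.41 and 4.398 CPM (adjusted p = 0.128). Aif1, Tyrobp, Ptprc and C1qc overlapped between the ages.

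**Figure D3:**
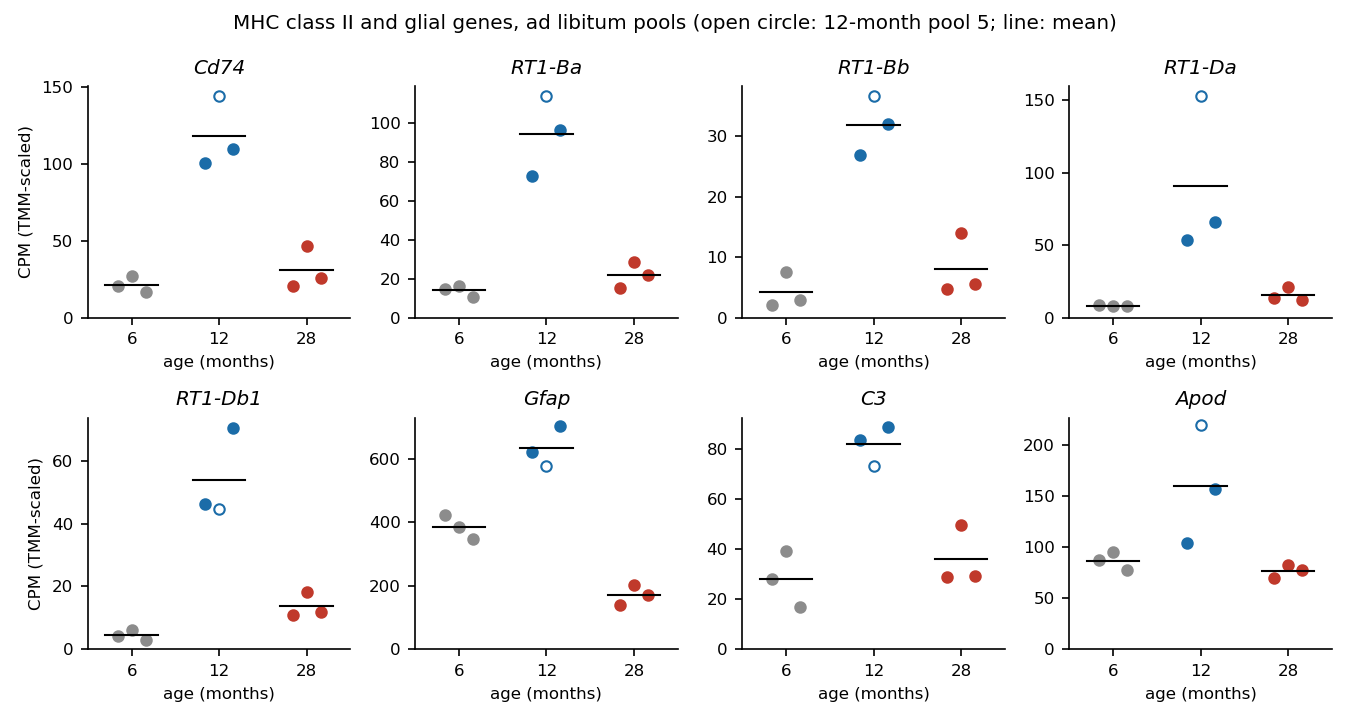
TMM-scaled CPM of the 5 class II genes that fell and of Gfap, C3 and Apod in the 3 AL pools of each age (points) with their mean (line), the shallow pool 5 as an open circle. In every panel the 12 m AL pools lie above the 28 m AL pools, and the class II genes at 6 months are at or below their level at 28 months, while Gfap at 6 months lies between the other ages.

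Haemoglobin transcripts also fell. Of 3 blood cell markers the 2 α-globin genes were lower, with a median log2 fold change of -1.87 over the list. Hba2 had 76.2, 67.1 and 137 CPM at 12 months and 19.4, 27.3 and 27.1 CPM at 28 months (3.90-fold, edgeR adjusted p = 4.27e-05). Hba-a2 had 185, 102 and 349 CPM and then 57.8, 52.2 and 77.1 CPM (3.49-fold, adjusted p = 0.000579). The older pools were below every 12-month pool for both, the 12-month pools differed among themselves by over 3-fold in Hba-a2, and near-identical globin copies lose reads where multiply mapping reads are left out. The summed level of the blood markers was 176.9 to 513.5 CPM at 12 months and 81.62 to 107.6 CPM at 28 months, and the part that residual blood plays in any other difference was not tested. Of 3 endothelial and pericyte markers Ptprb, a phosphatase of vessel walls, was lower (30.2, 42.7 and 50.9 CPM against 16.3, 18.3 and 13.4 CPM, adjusted p = 0.0107, and 0.0588 without pool 5).

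Of 13 synaptic vesicle and release genes tested, 3 passed as lower, among them Sh3gl2, 0 as higher, 9 had an unadjusted p under 0.05 in edgeR's test, 12 had a negative log2 fold change, and the median was -0.76. Without pool 5 the count was 0 and the median -0.75. As for every list here, the members come from the 1664 selected identifiers, of which 3.07% passed, with a median of -0.11. Of all tested genes 10.3% had an unadjusted p under 0.05 in edgeR's test. That share was not counted among the 1664, so the list counts are not a result about vesicle genes as such.

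Sh3gl2, endophilin A1 of vesicle recycling, had 137, 106 and 203 CPM in pools 4, 5 and 6 and 86.3, 86.4 and 74.3 CPM in pools 7, 8 and 9, without overlap. Its 6-month pools, at 84.9, 97.6 and 112 CPM, overlapped those of 12 months at the upper end only. The log2 fold change was -0.88 ± 0.20 (edgeR adjusted p = 0.0469), and without pool 5 it was -1.03 with an adjusted p of 0.053.

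Members that did not pass included Stx1a (-1.05 ± 0.31, adjusted p = 0.17), Vamp1 (-0.91 ± 0.23, adjusted p = 0.08) and the calcium sensor Syt1 (-0.51 ± 0.19, adjusted p = 0.35). Vamp1 and Syt2 were, among the 12-month pools, highest in pools 5 and 6, the 12-month pools of high cerebellar score. The vesicle genes Bsn, Cplx2 and Napa overlapped between the ages. Postsynaptic scaffold genes (0 of 8 passed, median -0.40), glutamate receptor genes (0 of 7, median -0.09), GABA receptor genes (0 of 3, median 0.34) and ion channels of neuronal firing (0 of 9, median -0.21) gave no call. Those with an unadjusted p under 0.05 numbered 3, 1, 0 and 4. Shank1 and Shank3, postsynaptic scaffolds, had log2 fold changes of -0.91 ± 0.26 and -0.73 ± 0.24 with pools that overlapped.

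Peptide secretion was represented by 6 identifiers, of which 1 was lower and 0 higher, with a median of -0.78. Nucb1, a calcium-binding protein of the Golgi, had 75.4, 61.0 and 67.1 CPM at 12 months and 29.8, 44.4 and 31.02 CPM at 28 months (edgeR adjusted p = 0.0293, and 0.0921 without pool 5). The groups did not overlap for either identifier named Pcsk1n, a proprotein convertase inhibitor, nor for the granin Chgb, and none of these passed (adjusted p = 0.0602, 0.333 and 0.132). Scg2 and Cpe, by contrast, had log2 fold changes of 0.11 and 0.06 with overlapping pools. Immediate early genes, which follow neuronal activity, gave 0 calls among 10 and 5 with an unadjusted p under 0.05. Btg2 in this list ranged from 2.03 to 57.9 CPM among the 12 m AL pools alone.

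Clock genes had a median of -0.62, with 2 of 8 lower and 0 higher. Nr1d1, the clock repressor REV-ERBα, had 29.6, 52.9 and 29.2 CPM at 12 months and 9.79, 12.8 and 15.1 CPM at 28 months (edgeR adjusted p = 0.0116). Hlf, a transcription factor of the clock output, had 23.3, 14.2 and 16.2 CPM and then 2.86, 9.28 and 5.32 CPM (adjusted p = 0.0268). Every older pool was below every 12-month and every 6-month pool for either gene, although Hlf rests on 7 reads in pool 5. Neither passed without pool 5 (0.0839 and 0.0992). The clock output gene Dbp and the core repressor Cry2 had log2 fold changes of -0.40 ± 0.22 and 0.14 ± 0.19 and did not pass.

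Genes of DNA and histone methylation had a median log2 fold change of -1.18, with 2 of 7 lower, 0 higher and 5 with an unadjusted p under 0.05. Tet3, an oxygenase that starts the removal of methyl groups from cytosine, had 34.8, 44.7 and 35.4 CPM at 12 months and 13.7, 17.98 and 17.4 CPM at 28 months (edgeR adjusted p = 0.0188, and 0.0872 without pool 5). Mbd6, a protein with a methyl-CpG-binding domain, had 16.7, 10.2 and 13.8 CPM and then 3.67, 3.77 and 3.01 CPM (adjusted p = 0.00646, and 0.0112 without pool 5). Both had pools that did not overlap, and Mbd6 had 5 reads in pool 5. The histone methyltransferase Dot1l and the demethylase Kdm6b were separated by age as well and did not pass (adjusted p = 0.0601 and 0.14). Among 6 genes of acetylation and remodelling 0 passed (3 with an unadjusted p under 0.05, median -0.43).

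In the myelin list 1 of 5 was lower and 0 higher, with a median of -0.57. Of the 5, 4 had a negative log2 fold change and 3 an unadjusted p under 0.05 in edgeR's test. Padi2, which converts arginines of myelin basic protein, had 59.8, 61.0 and 63.4 CPM at 12 months and 22.4, 37.4 and 31.7 CPM at 28 months (edgeR adjusted p = 0.0299, and 0.111 without pool 5), while the myelin proteins Mog and Cldn11 had log2 fold changes of -0.23 and 0.25 and did not pass. Among lower genes outside these lists, Aldoa, a glycolytic aldolase, had 315, 279 and 306 CPM at 12 months and 110, 164 and 128 CPM at 28 months (adjusted p = 0.000984). Snx3, a sorting nexin of endosomes, had 103, 126 and 96.7 CPM and then 37.95, 46.1 and 45.1 CPM (adjusted p = 0.000487). Nop10, a protein of the particles that modify ribosomal RNA, had 24.1, 24.4 and 34.2 CPM and then 8.77, 6.38 and 7.41 CPM (adjusted p = 0.000711). These 3 did not overlap between the ages and passed without each pool in turn. Fth1, the heavy chain of the iron store ferritin, had 601, 734 and 630 CPM and then 337, 404 and 322 CPM (adjusted p = 0.0137, and 0.112 without pool 5). Aldoa, Fth1 and the ribosomal protein genes have near-identical copies in the genome, so their counts are uncertain where multiply mapping reads are left out.

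Of the 13 genes that rose, 9 carry a symbol, among them Rbm3, Sult1d1, Sult1a1, Htra1, Heph, Rpl22l1, Sar1b and Gpd1. Their log2 fold changes ran from 0.92 (Sar1b) to 1.57 (Sult1d1).

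Rbm3, an RNA-binding protein induced by cold, had 44.7, 42.7 and 44.6 CPM in pools 4, 5 and 6 and 118, 81.5 and 88.4 CPM in pools 7, 8 and 9 (log2 fold change 1.13 ± 0.20, edgeR adjusted p = 0.00628, and 0.053 without pool 5). The other cold-induced RNA-binding gene, Cirbp, had a log2 fold change of -0.14 ± 0.24 and overlapping pools. The sulfotransferases Sult1a1 and Sult1d1, which sulfate phenols and amines, had 13.7, 18.3 and 10.8 CPM and 9.87, 4.07 and 8.34 CPM at 12 months. At 28 months they had 27.3, 35.1 and 30.1 CPM (Sult1a1) and 30.4, 23.2 and 22.2 CPM (Sult1d1). Both were separated by age. Sult1d1 (edgeR adjusted p = 0.0107, and 0.053 without pool 5) had 2 reads in pool 5. Sult1a1 (adjusted p = 0.0329, and 0.0573 without pool 5) passed in 0 of the 6 fits that left out a pool, so its call needs every pool. In the same list, the 2 metallothionein genes Mt3 and Mt2A did not pass.

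Htra1, a secreted serine protease, had 82.8, 81.3 and 76.7 CPM at 12 months and 139, 168 and 153 CPM at 28 months (adjusted p = 0.0109, and 0.0588 without pool 5). It was the only member called among 10 identifiers of matrix and perineuronal net genes, whose median was -0.37, and the link protein Hapln4 lay lower at 28 months under both of its identifiers without passing (adjusted p = 0.11 and 0.19). Heph, a copper-dependent iron oxidase, had 12.6, 4.07 and 13.3 CPM and then 30.0, 25.8 and 36.1 CPM (adjusted p = 0.0182, and 0.0836 without pool 5), the direction opposite to Fth1. Gpd1, the glycerol phosphate dehydrogenase of the cytosol, had 65.3, 99.7 and 127 CPM and then 154, 207 and 192 CPM (adjusted p = 0.0423, and 0.199 without pool 5). Gpd1 and Sar1b passed in 1 of the 6 fits that left out a pool. The adjusted p without pool 5 was 0.109 for Sar1b and 0.0839 for Rpl22l1. Of 24 identifiers of ribosomal protein genes 2 were higher, among them Rpl22l1, and 0 lower, with a median of 0.07.

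**Figure D4:**
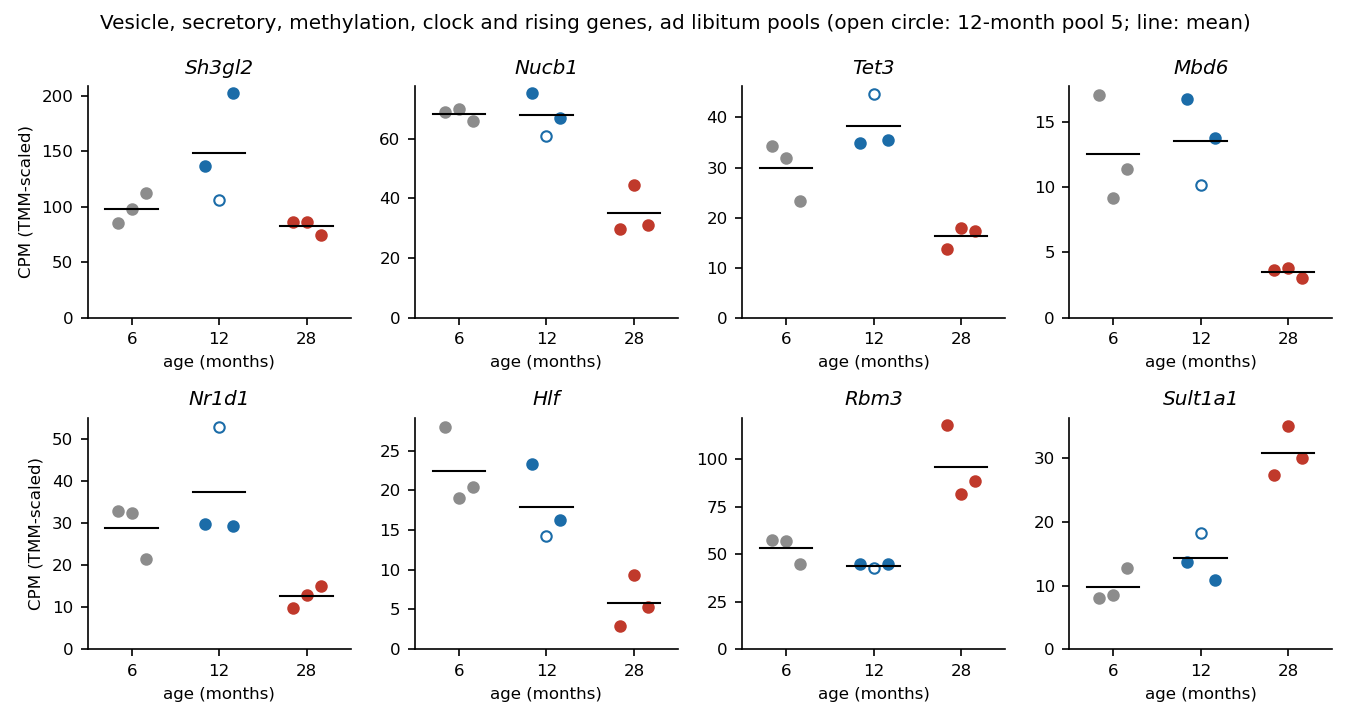
TMM-scaled CPM of synaptic vesicle (Sh3gl2), secretory (Nucb1), DNA methylation (Tet3, Mbd6) and clock genes (Nr1d1, Hlf) and of 2 genes that rose (Rbm3, Sult1a1) in the 3 AL pools of each age (points) with their mean (line), the shallow pool 5 as an open circle. The 28 m AL pools are the lowest in the first 6 panels, except that they overlap the 6-month pools for Sh3gl2, and the highest in the last 2.

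The groups of genes differed in which age stood apart. Of the 62 called genes outside the Rn28s set, 31 had all 28 m AL pools below every 6 m AL and 12 m AL pool (2.75% of all genes did), as for Nr1d1, Hlf, Nucb1, Mbd6 and Tet3. For 23 of the 62, all 12 m AL pools were above every pool of both other ages (1.6% of all genes), as for the class II genes, C3 and Apod, and a gene such as Gfap counts under both. Of those that rose, 10 had all 28 m AL pools above every pool of both other ages (2.65% of all genes). These shares are descriptions of genes already called between 12 and 28 months.

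**Figure D5:**
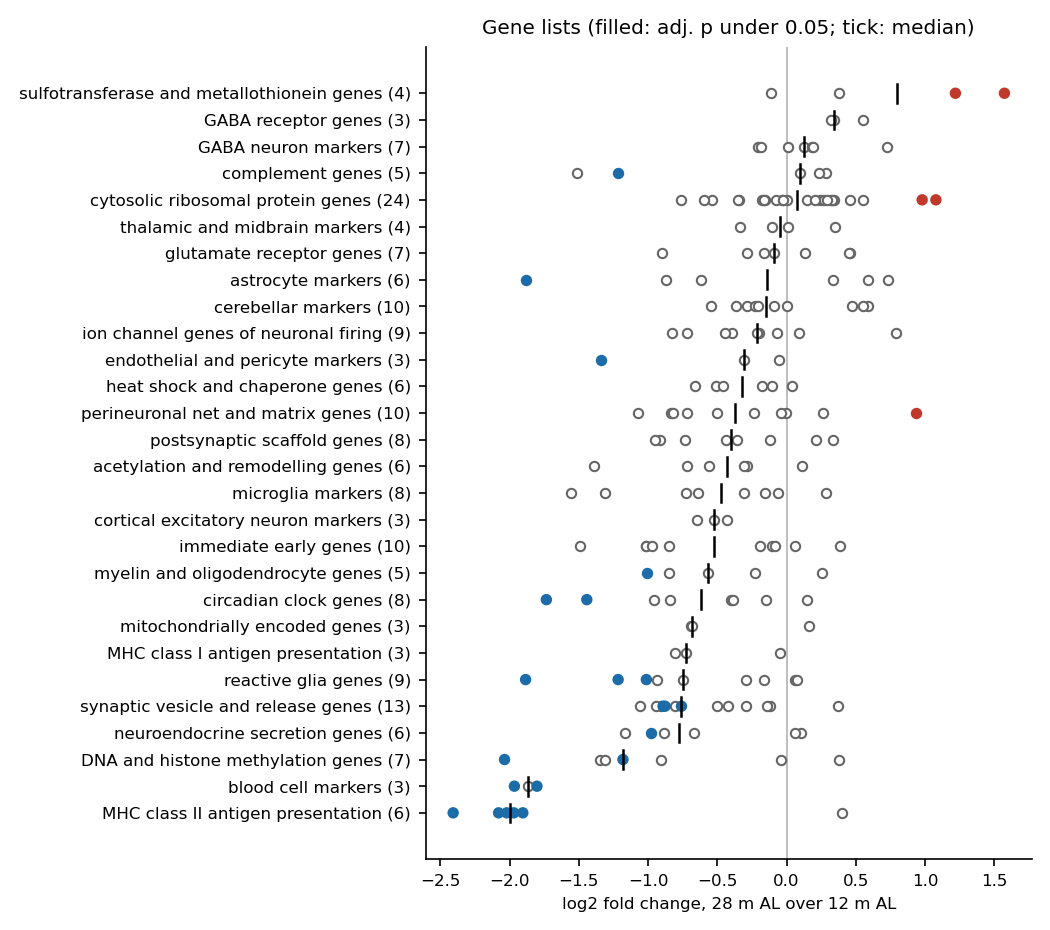
The log2 fold change of 28 m AL over 12 m AL for each tested member (circles) of the gene lists with at least 3 members, the number of members in brackets, filled where the adjusted p was under 0.05 (blue lower, red higher) and with the median as a black tick. Class II, blood and methylation genes have the lowest medians (-1.99, -1.87 and -1.18), and the sulfotransferase and metallothionein list the highest (0.80).

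The libraries of other diets were set beside the AL pools for the same genes, as values without a test. They comprise 6 libraries of 12 months (12 m CR and 12 m AL+LA) and 21 of 28 months. Of the 21, 15 are from rats that changed diet during life, either into CR (from AL or from AL+LA) or out of plain CR (to CR with lipoic acid, to AL+LA or to AL), and those moved to AL were on the plain AL diet when sampled. Gfap had 226.4 to 439 CPM in those of 12 months and 390.3 to 862 CPM in those of 28 months, so that all 6 were below every 12 m AL pool and all 21 above every 28 m AL pool. For RT1-Ba all 21 libraries of 28 months, at 37.1 to 97.0 CPM, were above the 28 m AL pools, and 5 of the 6 libraries of 12 months were below the 12 m AL pools. Cd74 had a median of 25.1 CPM in the other libraries of 12 months and 76.7 CPM in those of 28 months, while in AL it was 3.74-fold higher at 12 than at 28 months. For these 3 genes the order of the ages by median was thus the reverse in the other diets. Labels were used as given, and whether any library is mislabelled was not tested.

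For some other genes whole age groups of AL lay outside the range of the other diets. Tet3 was higher in every 12 m AL pool than in all 27 libraries of other diets of 12 and 28 months, and the 6-month pools of AL, at 23.3 to 34.3 CPM, were above all 27 as well. Hba2, Nop10, Snx3 and Nr1d1 were lower in every 28 m AL pool than in all 27. For 3 of these some 6 m AL pools were below all 27 as well. They were pools 1 and 2 for Nop10 (10.2 and 8.84 CPM) and Snx3 (57.0 and 56.5 CPM), and pools 2 and 3 for Hba2 (20.75 and 52.2 CPM). Nr1d1 at 6 months, at 21.5 to 32.9 CPM, lay within the range of the other diets. Htra1, Heph and Sar1b were higher in every 28 m AL pool than in all 27. For Htra1 the 6 m AL pools 1 and 3, at 99.4 and 100.5 CPM, were above all 27 too, and for Heph and Sar1b no 6 m AL pool was. Rbm3 at 28 months, at 81.5 to 118 CPM, lay within the range of the other diets (50.6 to 109.5 CPM) for 2 of its 3 pools.

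The change with age was tested against that in other diets as an interaction in edgeR, over 12 libraries each. Against CR, 66 genes (0.383%) differed, of which 51 were among the 89 (27 of the Rn28s set and 24 others). Against AL+LA, 32 genes (0.186%) differed, of which 24 were among the 89 and 0 of them in the Rn28s set. Rn28s itself differed from AL+LA by -2.12 ± 0.48 without passing (edgeR adjusted p = 0.0621). Its log2 fold change within AL+LA was -0.20. Both tests use the same AL pools, so their gene lists are not independent.

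In AL+LA, Gfap rose from 381 CPM ± 54.3 to 729 CPM ± 119 between 12 and 28 months (SD, n = 3 pools each), and in CR from 262 CPM ± 46.5 to 523 CPM ± 157, while it fell in AL. The difference from AL was -2.81 ± 0.22 on the log2 scale for AL+LA (adjusted p = 8.61e-08). For the class II genes, 3 of 5 differed from AL+LA: RT1-Ba (-2.80 ± 0.59, adjusted p = 0.0457), RT1-Da (-3.18 ± 0.57, adjusted p = 0.0156) and Cd74 (-2.80 ± 0.53, adjusted p = 0.0246). RT1-Bb and RT1-Db1 did not pass (adjusted p = 0.201 and 0.164). Within AL+LA itself none of the 5 passed between 12 and 28 months, with log2 fold changes of 0.41 to 0.88. The 12 m AL+LA pools were far apart, at 39.7 CPM ± 41.8 for RT1-Ba, 27.98 CPM ± 24.4 for RT1-Da and 45.7 CPM ± 39.4 for Cd74 (SD, n = 3 pools).

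Other genes lower in AL at 28 months and flat in AL+LA were Nop10 (29.6 and 30.2 CPM at the 2 ages in AL+LA, adjusted p of the interaction 0.00542) and Hba2 (108 and 107 CPM, 0.00248). Padi2 differed from AL+LA (-1.51 ± 0.26, adjusted p = 0.00926) and from CR (-1.17 ± 0.26, adjusted p = 0.0498). For Sh3gl2, Tet3, Nr1d1 and Hlf the interaction did not pass against either diet (adjusted p from 0.113 to 0.551), so a different course of these genes in AL was not shown.

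Finally, Rn28s and the identifiers chosen for following it were lower at 28 months. Rn28s, the 28S ribosomal RNA gene, and 26 identifiers whose log2 CPM over the 39 libraries correlated with it at an absolute Pearson's r of at least 0.8 (a description, since libraries share their depletion chemistry) were all called as lower, with log2 fold changes from -2.33 to -0.75. Of the 27, 23 are annotated as miRNA, 3 as protein coding and 1 as a processed pseudogene, and apart from Rn28s their grouping rests on this correlation alone. The correlation was taken over libraries that include the 6 compared, so the shared direction is in part built into the choice. Together they took 22.05%, 19.61% and 17.45% of the reads on genes in pools 4, 5 and 6 and 7.30%, 9.53% and 4.19% in pools 7, 8 and 9, without overlap. The 6 m AL pools lay between, at 13.02%, 14.87% and 11.05%, and the libraries of other diets ran from 5.16% to 24.2%. Ribosomal RNA was depleted before sequencing, and the part of depletion in the difference was not tested. With these 27 identifiers removed before library sizes were set, 53 of the other 62 genes passed and no further gene did.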

How the data were processed

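Libraries came from ribodepleted cortex RNA. The authors ran them on a SOLiD sequencer, used Bowtie for the colour-space alignment to Rnor_5.0 (rn5), dropped multiply mapping reads and used HTSeq-count for the counting. What they deposited is a raw count per Ensembl gene and library, not normalized. The last 5 lines of each table, which name no gene, were left out of library sizes: they held 33.6% ± 2.92 of all reads as not aligned at 12 months and 31.2% ± 3.25 at 28 months (SD, n = 3, two-sided exact permutation test, p = 0.4). Of the aligned reads, 83.6% ± 0.499 and 81.2% ± 1.12 fell on no gene (exact permutation p = 0.1, the smallest that 3 pools against 3 allow).

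The test covered 17230 of 26123 genes, those reaching 1 CPM in 3 or more of the 39 libraries. The 6 libraries were compared with edgeR 4.0.16 in R 4.3.3 (TMM, quasi-likelihood test, Benjamini-Hochberg adjustment, threshold 0.05), and the interactions over 12 libraries each. A standard error is the log2 fold change divided by the square root of F. CPM are TMM-scaled over all 39 libraries. The script was tested on simulated data. Within either group every pair of pools differed beyond sampling noise (chi-square per degree of freedom 3.24 to 12.9), and none was counted as a copy.

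Symbols come from tables that accompany the study and cover 1664 of the tested identifiers, genes that the study itself listed as changed. Promoters are from RefSeq (GRCr8). Named genes were called members of gene lists (at most 3 by unadjusted p where a list had none), up to 15 per direction by adjusted p with separated pools, Rn28s, genes the study's text names for these ages, and up to 5 per direction and interaction. The lists and members were chosen with earlier results of these data known. DESeq2 1.42.0, edgeR's exact test, RLE size factors, other filters, all 13 groups in one fit, a fit without the Rn28s set, the cerebellar score as a covariate and leaving out each pool were tried. Gene positions on rn5 and term enrichment were not analysed here, and some genes are not reported here.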

Additional observations from a re-analysis of the deposited data

Results flagged for a closer look

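The following genes, all called between 12 m AL and 28 m AL, were picked out because their change with age in AL differed from that in another diet by edgeR's interaction test. Values are the log2 fold change in AL minus that in the other diet. Against CR, the differences were -2.88 for Gfap, -5.52 for Rn28s, -3.94 for RT1-Ba, -3.88 for RT1-Db1, -3.81 for Cd74 and 1.16 for Rbm3. In CR itself, between 12 and 28 months, Gfap changed by 0.999, Rn28s by 3.20, RT1-Ba by 1.88, RT1-Db1 by 1.86 and Cd74 by 1.93, all past the threshold, and Rbm3 by -0.03, which did not pass. Rbm3 stood at 98.4 CPM in 12 m CR and 96.5 CPM in 28 m CR, against 44.0 and 96.1 CPM in AL.

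Against AL+LA, the differences were -2.81 for Gfap, -1.96 for Hba2, -1.88 for Nop10, 1.37 for Rpl22l1, 1.04 for Htra1, -1.13 for Fth1, 1.09 for Sar1b and -1.59 for Pbx3. Of these, Gfap was the only one that passed between the ages within AL+LA itself (log2 fold change 0.93, adjusted p = 0.00285). In AL, Pbx3 was lower at 28 months (edgeR adjusted p = 0.0436, and 0.203 without pool 5). Rpl22l1 had 93.3 and 77.1 CPM in 12 m and 28 m AL+LA, against 42.2 and 89.3 CPM in AL, so that its AL pools of 12 months, at 40.01 to 45.8 CPM, were the low ones, below all 6 libraries of 12 months of the other diets. With groups of 3 pools no test for single outlying pools was made.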

How the results depend on the processing

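The count of 89 genes was 110 with DESeq2, 112 with edgeR's exact test, 90 with RLE size factors and 64 with at least 10 counts in every library. It rose to 225 with no filter on low counts, 437 with all 13 groups in one fit and 454 with the cerebellar score added to that fit. It was 53 without Rn28s and the genes that follow it. Alternatives chosen after seeing the data were the cerebellar score as a covariate in the 6 libraries, which gave 270 genes with all 89 among them, and leaving out the libraries of high score. The latter leaves pool 4 against pool 8 with the spread taken from the other groups, and gave 3 genes for AL, with 61 of the 62 genes outside the Rn28s set in the same direction, 2 against CR and 1 against AL+LA. The shared direction between pools 4 and 8 was largely fixed in advance, because 88 of the 89 called genes have pools that do not overlap. The exception, ENSRNOG00000011672, is the called gene whose pools overlap. The shared direction is therefore no test of whether the changes depend on the cerebellar score. Leaving out one pool at a time gave 31 (without pool 5) to 163 genes (without pool 6). Pools 5, 7 and 9 lowered the count to 31, 37 and 53, and pools 4, 6 and 8 raised it to 150, 163 and 145. The cause was not tested.

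The 66 genes against CR became 116 with DESeq2, 214 with no filter, 122 with all 13 groups, 124 with the score in that fit and 33 without the Rn28s set, and 46 to 83 on leaving out one pool. The 32 genes against AL+LA became 58 with DESeq2, 185 with no filter, 74 with all 13 groups with or without the score and 102 with the score in the libraries compared, and 9 (without pool 7) to 106 (without pool 8) on leaving out one pool. Without pool 9 there were 12, without pool 5 there were 20, and without one of the AL+LA pools 34 to 39 there were 13 to 38. The difference in reads not aligned was -4.01 to -0.53 percentage points and that in reads on no gene -2.82 to -1.81 on leaving out one pool.

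For the genes named by symbol, no alternative reversed a called direction, which pools that do not overlap largely fix in advance. ENSRNOG00000011672 was the exception among the identifiers, with a log2 fold change of -5.93 in the 6 pools. Its value rose to as much as 3.95 on leaving out 1 pool, and was 3.37 for pool 4 against pool 8. No paired analysis was possible because the pools carry different numbers in every group. Depth limits genes of low level above all in pool 5, where Sult1d1 and Heph had 2 reads and Mbd6 had 5.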

Other observations

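Rn28s and 2 further identifiers of the Rn28s set, both annotated as miRNA, had counts within 5% of each other in all 6 pools, with 107954, 107648 and 108209 reads in pool 4 and 12647, 12731 and 12750 reads in pool 9. Of the 89 called genes, 24 are annotated as miRNA, and 23 of these belong to the Rn28s set. The other, ENSRNOG00000036339, was higher at 28 months, with 2147, 1375 and 2321 CPM in pools 4, 5 and 6 and 9065, 2441 and 3504 CPM in pools 7, 8 and 9 (edgeR adjusted p = 0.043). It did not pass without pool 5, as no gene higher at 28 months did, and it was picked out after its values were seen. ENSRNOG00000047746, annotated as protein coding, took 1.39%, 1.81% and 1.35% of the reads on genes in pools 4, 5 and 6 and 0.34%, 0.43% and 0.17% in pools 7, 8 and 9, and over the 39 libraries it correlated with Rn28s at 0.07 only.

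Other lower genes with a symbol that are in no list included the energy genes Uqcrc1 (log2 fold change -0.93) and Ndufv3 (-1.67), subunits of respiratory complexes III and I, and Atp1b3 (-1.10), a subunit of the sodium pump. Their edgeR adjusted p was 0.0131, 0.0195 and 0.0109, and 0.053, 0.111 and 0.053 without pool 5. The mitochondrially encoded COX2 and ND3 had log2 fold changes of -0.68 and -0.69 and did not pass (adjusted p = 0.132 and 0.119), although their pools did not overlap. ATP8, the other mitochondrially encoded gene tested, had a log2 fold change of 0.16 with overlapping pools (edgeR adjusted p = 0.861). These genes were chosen after their values were seen.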
